A study of Mus musculus with 2 samples.

Results

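The transporters that carry amino acids across the membranes of C2C12 cells were examined after knockdown of *Malat1*, through every gene of the table whose symbol places it in the families Slc1a, Slc3a, Slc7a, Slc36a, Slc38a or Slc43a. The table of 22095 genes listed 42 of them, which is as many as RefSeq holds under the same 6 family names. C2C12 is a mouse myoblast line that fuses into multinucleated myotubes when serum is withdrawn. One culture received si*Malat1*, a short interfering RNA against the nuclear non-coding RNA *Malat1*, and the other received siNC, a negative control oligo. Both were C2C12 myoblasts induced to differentiate in DMEM with horse serum (the labels give no day, but a figure legend of the paper does). From each, 1 library of polyadenylated RNA was sequenced. The knockdown was transient, and with 1 library on each side no difference could be set against the spread between cultures, so that no test, standard error or p-value is given.

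Amino acids are charged or polar and cross membranes mainly through such carriers. The SLC3 proteins are heavy chains that bring SLC7 light chains to the cell surface, and *Slc3a2*, known as CD98 or 4F2hc, forms the large neutral amino acid exchanger of growing cells with *Slc7a5*, known as LAT1. Other SLC7 proteins take up arginine and lysine without a heavy chain. SLC1 proteins carry glutamate or small neutral amino acids, and SLC38 proteins carry glutamine and alanine with sodium, some of them at the lysosome. Some SLC36 proteins are driven by protons, and some SLC43 proteins let large neutral amino acids diffuse through. When amino acids run short, the kinase GCN2 raises translation of the transcription factor ATF4, which with C/EBP partners induces several of these genes through a composite site of the form TGATGNAA.

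Values are FPKM, fragments scaled to transcript length and to the size of the library, as the authors deposited them. Levels of different genes can therefore be set side by side. Ratios are of si*Malat1* over siNC after 0.1 FPKM was added to both, which understates the change of low genes. For *Malat1* the table gave 34.2 FPKM in si*Malat1* against 41.8 FPKM in siNC, a log2 ratio of -0.29. That decrease falls short of the 20% used below as the threshold for a lower gene. The paper states that the end of *Malat1* is not formed by canonical polyadenylation, and the libraries hold polyadenylated RNA. How well this FPKM measures the knockdown was not tested. The paper reports knockdown by RT-qPCR in the samples that were sequenced, and it also shows their RNA-seq signal over *Malat1*. The FPKM of all genes summed to 502715 in si*Malat1* and 484715 in siNC, and equal sums would lower each log2 ratio by about 0.05, while centring on the median of all genes would raise it by 0.04. The markers of skeletal muscle, *Des*, *Myod1*, *Myog*, *Acta1*, *Ckm* and *Tnnt3*, were all present and summed to 9183 FPKM in si*Malat1* and 6377 FPKM in siNC, with *Myod1* the one that was lower in si*Malat1* (95.8 and 113 FPKM). Of 13 markers of leukocytes, endothelium, adipocytes, neurons and glia, 12 were matched, and the highest reached 0.592 FPKM in si*Malat1* and 1.00 FPKM in siNC. The summed muscle markers moved with the knockdown, and in bulk RNA a larger share of differentiated cells and more RNA per cell cannot be told apart. The part of that shift in the values below was not tested.

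Promoter sequence is described first, because several of these genes are known targets of ATF4, but it was searched after the ratios had been computed. RefSeq promoter windows, from 250 bases before to 50 bases after a gene's start in GRCm38.p6, were found for 31 of the 42 transporters, and for 16 of the 21 whose mean of both libraries was at least 1 FPKM. TGATGNAA, searched on both strands, occurred in the windows of *Slc7a11*, *Slc1a4* and *Slc7a7*. It occurred in 4.51% of all 27025 genes with a window, and in 2.61% of the 7769 of them whose mean FPKM also reached 1. The copies shown here, with the motif in capitals, are those with a C at its variable base, each read in the direction of its gene.
*Slc7a11*, first copy: tcatgtggcTGATGCAAacctggaga
*Slc7a11*, second copy: ctggagaatTTGCATCAtcatgcagc
*Slc1a4*: cctcctgcgTTGCATCAtctccagcc
*Slc7a7*: cctagaagcTGATGCAAcagcttccc
All of these genes lie on the minus strand, and the sequences span chr3:50443663-50443688 and chr3:50443644-50443669 for *Slc7a11*, chr11:20332701-20332726 for *Slc1a4* and chr14:54417929-54417954 for *Slc7a7*. The copies of *Slc7a11* begin 66 and 47 bases before the gene's start, on opposite strands. Those of *Slc1a4* and *Slc7a7* straddle an annotated start, from 4 bases before it and from 1 base before it. *Slc7a7* has several annotated starts, and a further copy, with A at the variable base, lies 141 bases before the same one. The windows of *Slc3a2*, *Slc7a1* and *Slc38a2* held none, and *Slc7a5*, *Slc1a5*, *Slc38a1*, *Slc43a3* and *Slc7a2* had no window. Sequence outside the windows was not searched, so a gene without a copy here can hold one elsewhere. The E-box CAGCTG, a form that MyoD binds, occurred in 9 of the 31 transporters with a window and in 18.3% of all genes with one. Among transporters with a mean of at least 1 FPKM it occurred in 3 of the 16 with a window, *Slc7a1*, *Slc38a6* and *Slc7a7*, beside 17.9% of the 7769 genes at that mean, so the share was close to that of all such genes. A match of letters is not evidence that a factor was bound in these cells.

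Many of the family members were barely present. Of the 42 transporters, 21 had a mean of at least 1 FPKM, 8 were above 0 in both libraries but under that mean, 4 were listed at 0 in 1 library and 9 in both. A listed 0 can be a failed estimate, so such genes have no ratio. The cells carried *Slc7a5* at 203 FPKM, *Slc3a2* at 141 FPKM and *Slc38a2* at 129 FPKM in si*Malat1*. In siNC the same genes stood at 130, 95.7 and 133 FPKM. *Slc38a2*, the sodium-coupled carrier SNAT2 of alanine and glutamine, was thus the highest of all 42 in siNC and the third in si*Malat1*. Together these genes held 70.4% of the summed FPKM of the 42 in si*Malat1* and 64.6% in siNC, and *Slc38a10* followed in both libraries with 44.4 and 50.1 FPKM. The remaining 39 genes summed to 199 FPKM in si*Malat1* and 196 FPKM in siNC, so the larger total of the families in si*Malat1* (673 FPKM, against 555 FPKM in siNC) lay in the CD98 heavy chain and LAT1.

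**Figure D1:**
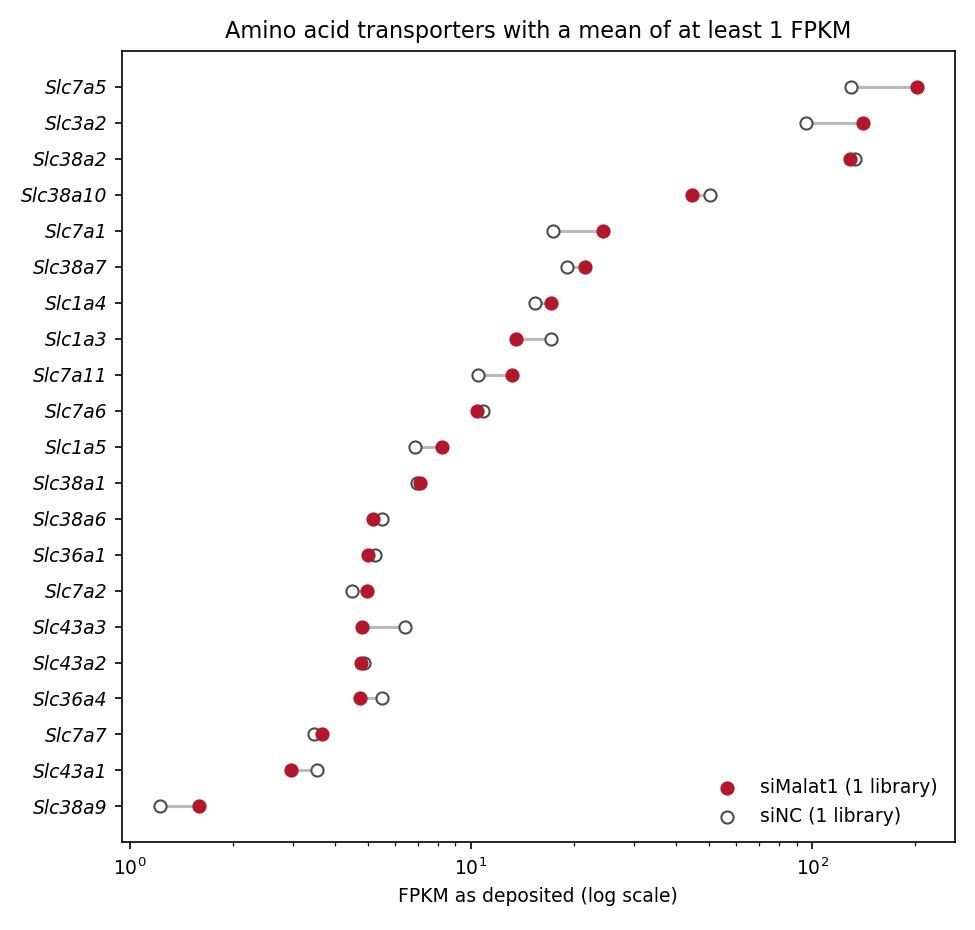
FPKM of the 21 transporters with a mean of at least 1 FPKM (horizontal axis, log scale) in si*Malat1* (filled points) and siNC (open points), 1 library each and without error bars. *Slc7a5* and *Slc3a2* lie at 203 and 141 FPKM in si*Malat1*, right of their siNC points, while the points of *Slc38a2* nearly coincide.

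Of the 21 transporters, 5 were at least 25% higher in si*Malat1* and 2 at least 20% lower, which is the same fold in either direction. Among all 11099 genes that passed the same filter and were above 0 in both libraries, 6.5% were at least 25% higher and 8.43% at least 20% lower. The share on the higher side, 23.8% of the transporters, was therefore above that of all genes, and the share on the lower side, 9.52%, was close to it. The transporters were chosen with earlier results of these data known, so these shares are no independent evidence of a direction. With FPKM scaled to equal sums the split was 3 higher and 2 lower, beside 5.07% and 12.0% of all genes, and with ratios centred on the median of all genes it was 5 higher and 1 lower, beside 7.80% and 6.62%. At 1.5-fold the count was 1 higher, *Slc7a5*, and 0 lower, where 2.29% and 1.75% of all genes passed. Of the 21, 11 had a log2 ratio above 0 and 10 below, beside 4723 and 6376 of the 11099 genes. The median log2 ratio of the 21 was 0.04, against -0.04 over all genes. Equal sums turned the sign of that median, to -0.02, beside -0.09 for all genes. By family the median was 0.56 for the 1 gene of Slc3a, 0.23 for the 6 genes of Slc7a, 0.16 for the 3 of Slc1a, -0.00 for the 6 of Slc38a, -0.13 for the 2 of Slc36a and -0.24 for the 3 of Slc43a.

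**Figure D2:**
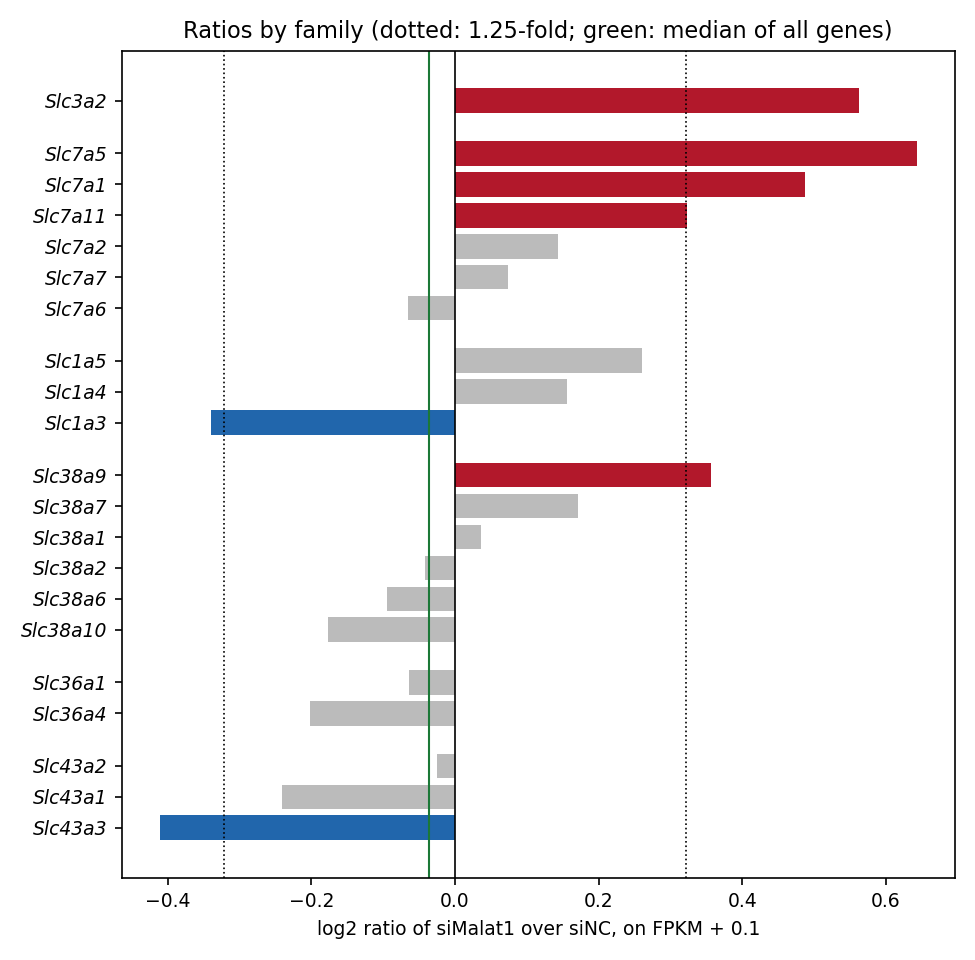
Log2 ratios of si*Malat1* over siNC for the 21 transporters, grouped by family (bars, 1 value per gene and no error), with dotted lines at 25% higher and 20% lower and the median of all genes by a green line at -0.04. The red bars past the right dotted line are *Slc3a2*, *Slc7a5*, *Slc7a1*, *Slc7a11* and *Slc38a9*, and the blue bars past the left one are *Slc1a3* and *Slc43a3*.

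The heavy chain *Slc3a2* and its light chain *Slc7a5* had the largest ratios of the 21. *Slc7a5*, the LAT1 light chain that exchanges glutamine for leucine and other essential amino acids, had 203 FPKM in si*Malat1* and 130 FPKM in siNC. Its log2 ratio of 0.64 was above that of 98.1% of all genes. It lies on chromosome 8 of mm9 from 124405046 to 124431586. *Slc3a2*, the shared heavy chain, had 141 FPKM in si*Malat1* and 95.7 FPKM in siNC, and its log2 ratio of 0.56 was above that of 97.5% of all genes. It lies on chromosome 19 from 8781372 to 8797859, and neither gene shares its locus with another gene of the table.

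The other light chains were low beside *Slc7a5*. *Slc7a11*, the xCT light chain that imports cystine in exchange for glutamate, had 13.2 FPKM in si*Malat1* and 10.5 FPKM in siNC, a log2 ratio of 0.32 that just passed the 25% threshold. It is the gene with a pair of TGATGCAA copies shown above. *Slc1a4* and *Slc7a7*, which also hold the motif, had log2 ratios of 0.16 and 0.07. *Slc3a2* and *Slc7a1*, with 0.56 and 0.49, had windows without it, as did *Slc38a2*, with -0.04. Whether motif and ratio go together was not tested. *Slc7a6* and *Slc7a7*, the light chains that exchange cationic against neutral amino acids, had 10.4 and 3.65 FPKM in si*Malat1* and 10.9 and 3.46 FPKM in siNC, with log2 ratios of -0.07 and 0.07. *Slc7a7* shares its locus with *Oxa1l*, a gene of mitochondrial protein insertion, so its FPKM are less certain. The LAT2 light chain *Slc7a8* was listed at 0 in si*Malat1* and at 0.0124 FPKM in siNC, and *Slc7a10*, the Asc-1 light chain, was listed at 0 in both. Light chains that pair with *Slc3a2* summed to 230 FPKM in si*Malat1* and 155 FPKM in siNC, of which *Slc7a5* made up 88.2% and 83.9%. The sum was 1.63 times *Slc3a2* in si*Malat1* and 1.62 times in siNC, a comparison within each library that no scaling between libraries can change. The FPKM of the heavy chain and of the summed light chains thus stood in nearly the same proportion in both libraries. Within that sum the part of *Slc7a5* was larger in si*Malat1*. *Slc7a6*, *Slc7a7* and *Slc7a11* together came to 27.2 FPKM in si*Malat1* and 24.8 FPKM in siNC. Protein was not measured here. The other heavy chain, *Slc3a1*, which pairs with *Slc7a9* in the kidney, was listed at 0 in si*Malat1* and at 0.00953 FPKM in siNC, and *Slc7a9* and *Slc7a13*, its light chains, were listed at 0 in both.

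**Figure D3:**
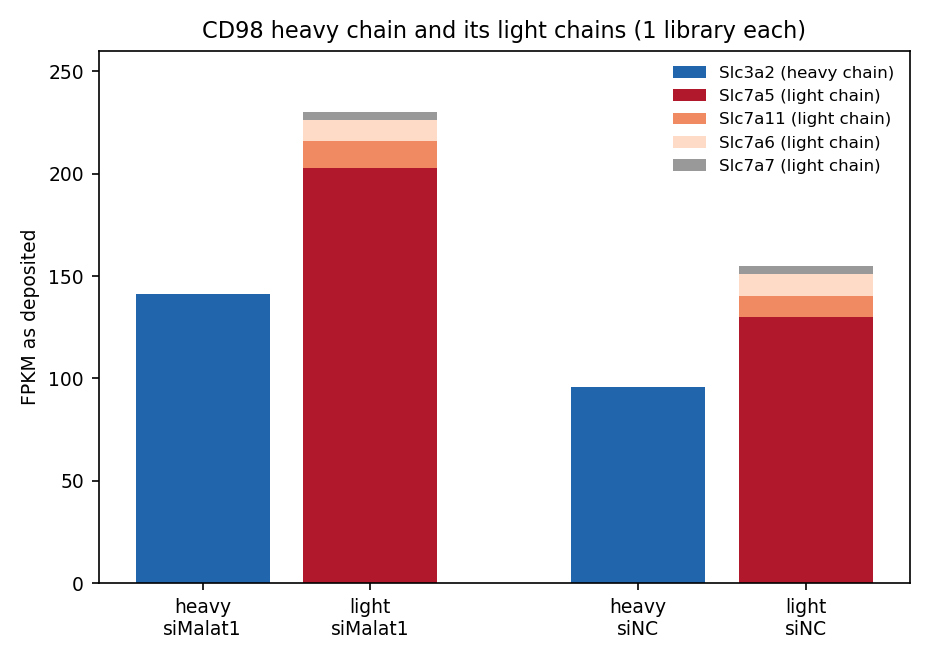
FPKM of the heavy chain *Slc3a2* (blue) and of the light chains that pair with it (stacked) in si*Malat1* and siNC, 1 library each and without error bars. The light chain stack reaches 230 FPKM in si*Malat1* and 155 FPKM in siNC and stands 1.63 and 1.62 times as high as *Slc3a2*.

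The arginine and lysine carriers were led by *Slc7a1*. *Slc7a1*, known as CAT1, had 24.4 FPKM in si*Malat1* and 17.4 FPKM in siNC, and its log2 ratio of 0.49 was above that of 96.8% of all genes. It lies on chromosome 5 of mm9 from 149138986 to 149211480. *Slc7a2*, the related carrier CAT2, had 4.96 FPKM in si*Malat1* and 4.48 FPKM in siNC, a log2 ratio of 0.14. *Slc7a4*, a relative whose substrates are not settled, had 0.308 FPKM in si*Malat1* and 0.715 FPKM in siNC, and was too low to be counted among the 21. *Slc7a3* stood at 0.0931 FPKM in si*Malat1* and 0.129 FPKM in siNC, and *Slc7a14* was listed at 0 in both.

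Members of Slc1a went both ways. *Slc1a3*, the glutamate carrier GLAST, had 13.5 FPKM in si*Malat1* and 17.1 FPKM in siNC, a log2 ratio of -0.34, and only 7.46% of all genes had a lower one. *Slc1a4* and *Slc1a5*, the exchangers ASCT1 and ASCT2 of small neutral amino acids and glutamine, had 17.2 and 8.20 FPKM in si*Malat1* and 15.4 and 6.83 FPKM in siNC. Their log2 ratios were 0.16 and 0.26, on the higher side but short of 25%. The neuronal glutamate carrier *Slc1a6* lay just under the filter with 0.969 FPKM in si*Malat1* and 0.856 FPKM in siNC. *Slc1a2*, the main glutamate carrier of astrocytes, had 0.00356 and 0.0244 FPKM, *Slc1a7* was listed at 0 in si*Malat1* and at 0.00419 FPKM in siNC, and *Slc1a1* was at 0 in both.

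The sodium-coupled Slc38a family held abundant genes with small differences. *Slc38a2*, which is also a known ATF4 target, had 129 FPKM in si*Malat1* and 133 FPKM in siNC, a log2 ratio of -0.04 that lay near the middle of all genes, with 48.9% below it. *Slc38a1*, its partner in system A transport, had 7.11 FPKM in si*Malat1* and 6.93 FPKM in siNC, a log2 ratio of 0.04 whose sign turned with equal sums. *Slc38a10*, whose role is less settled, had 44.4 FPKM in si*Malat1* and 50.1 FPKM in siNC, a log2 ratio of -0.18. *Slc38a7*, which exports glutamine and asparagine from lysosomes, had 21.6 FPKM in si*Malat1* and 19.2 FPKM in siNC, a log2 ratio of 0.17. *Slc38a9*, the arginine sensor that signals to mTORC1 on lysosomes, had 1.59 FPKM in si*Malat1* and 1.22 FPKM in siNC. Its log2 ratio of 0.36 rests on the lowest mean of the 21 and became 0.22 with 1 FPKM added in place of 0.1. *Slc38a6* stood at 5.14 FPKM in si*Malat1* and 5.50 FPKM in siNC, a log2 ratio of -0.09. *Slc38a4*, a system A carrier of liver, and *Slc38a3*, of system N, were under 0.1 FPKM, and *Slc38a5*, *Slc38a8* and *Slc38a11* were listed at 0 in both libraries.

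Every Slc36a and Slc43a gene that passed the filter had the lower FPKM in si*Malat1*, as did 6376 of all 11099 genes. The ratio of *Slc43a2* lay above that of 52.4% of all genes, and its sign turned with median centring and with equal upper quartiles. *Slc43a3*, which in human cells carries purine bases rather than amino acids, had 4.78 FPKM in si*Malat1* and 6.39 FPKM in siNC, a log2 ratio of -0.41 with 4.77% of all genes below it. It lies on chromosome 2 of mm9 from 84776813 to 84798666. *Slc43a1* and *Slc43a2*, the facilitated carriers LAT3 and LAT4 of large neutral amino acids, had 2.97 and 4.77 FPKM in si*Malat1* and 3.53 and 4.85 FPKM in siNC, with log2 ratios of -0.24 and -0.03. *Slc36a1*, the proton-coupled carrier PAT1, had 4.99 FPKM in si*Malat1* and 5.22 FPKM in siNC, a log2 ratio of -0.06. *Slc36a4*, which prefers proline and tryptophan, had 4.74 FPKM in si*Malat1* and 5.47 FPKM in siNC, a log2 ratio of -0.20. *Slc36a2* had 0.0142 FPKM in si*Malat1* and 0.0391 FPKM in siNC, and *Slc36a3* had 0.0239 FPKM in si*Malat1* and was listed at 0 in siNC. *Slc7a15* was at 0.0193 and 0.0267 FPKM, and *Slc7a12* was listed at 0 in both libraries, which completes the 42.

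**Figure D4:**
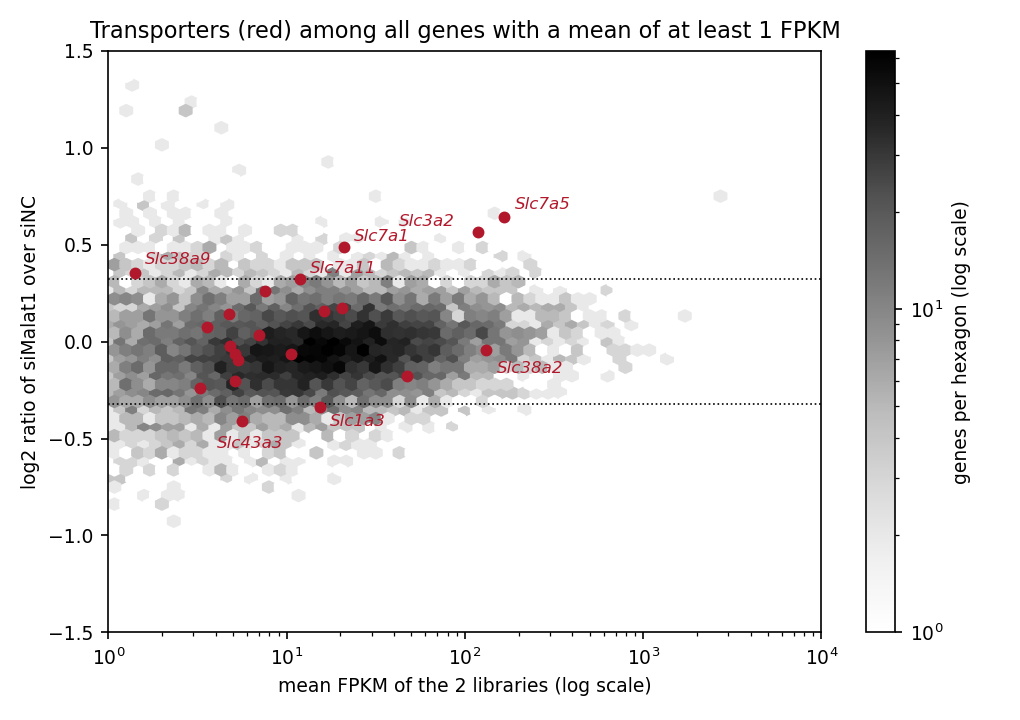
Log2 ratio of si*Malat1* over siNC (vertical axis) against the mean FPKM of both libraries (horizontal axis, log scale) for the 21 transporters (red) over the 11099 genes that pass the same filter (grey hexagons, darker with more genes), with 25% higher and 20% lower dotted. *Slc7a5* and *Slc3a2* lie at 0.64 and 0.56, and *Slc38a2* at a similar level lies at -0.04. The axis leaves out 21 genes beyond 1.5 on either side.

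Values on either side of the thresholds show how fine they are. *Slc7a11*, with a log2 ratio of 0.32, was the last gene inside on the higher side and *Slc1a5*, with 0.26, the first outside. On the lower side *Slc1a3*, at 0.790 times its siNC value, was inside and *Slc43a1*, at 0.846 times, was outside. *Slc38a9* with a mean of 1.41 FPKM was the lowest gene kept by the filter and *Slc1a6* with 0.913 FPKM the highest left out.

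Some of the genes lie close together on a chromosome. *Slc38a1*, *Slc38a2* and *Slc38a4* lie in this order on chromosome 15 of mm9 between 96401849 and 96886387, with gaps of 44.5 and 295 kb. Their FPKM were 7.11, 129 and 0.0656 in si*Malat1*, against 6.93, 133 and 0.0762 in siNC. *Slc36a3*, *Slc36a2* and *Slc36a1* lie together on chromosome 11 between 54938325 and 55049832, and *Slc36a1* was the one above 1 FPKM. *Slc43a1* and *Slc43a3* lie 73.1 kb apart on chromosome 2, and both had the lower FPKM in si*Malat1*. *Slc7a10* and *Slc7a9*, 234 kb apart on chromosome 7, were both listed at 0 in both libraries. On chromosome 14, *Slc7a7* stood at 3.65 FPKM in si*Malat1* and 3.46 FPKM in siNC, while *Slc7a8*, 305 kb away, did not exceed 0.0124 FPKM.

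Known targets of ATF4 among transporters were mostly on the higher side. Of 9 such genes, a list that holds 8 of the 42 and *Slc6a9*, 8 had a mean of at least 1 FPKM, and *Slc7a3* did not. They comprised 4 at least 25% higher and 0 at least 20% lower, beside 6.5% and 8.43% of all genes, with a median log2 ratio of 0.31 against -0.04 over all genes. The 4 were *Slc7a5*, *Slc3a2*, *Slc7a1* and *Slc7a11*, while *Slc1a4* and *Slc38a2* had the lowest ratios of the list. The list was written with earlier results of these data known, and it is no independent evidence of a direction. *Atf4* itself had 330 FPKM in si*Malat1* and 237 FPKM in siNC, a log2 ratio of 0.48.

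Amino acid transporters outside the 6 families were listed for comparison, and the difference between the lists was not tested. Of 30 listed, 14 had a mean of at least 1 FPKM, with 0 at least 25% higher, 1 at least 20% lower and a median log2 ratio of 0.03. With 6.5% and 8.43% of all genes past these thresholds, counts this small in 14 genes are near the background. Above 0 lay 8 of the 14, beside 4723 of all 11099 genes. *Slc6a9*, a glycine carrier, had 26.2 FPKM in si*Malat1* and 21.3 FPKM in siNC, at a locus that it shares with another gene, and *Ctns*, the lysosomal cystine exporter, had 9.51 and 8.72 FPKM. *Slc25a22*, a mitochondrial glutamate carrier, had 3.999 FPKM in si*Malat1* and 5.59 FPKM in siNC, and *Slc6a17*, a carrier of synaptic vesicles, had 0.907 and 1.13 FPKM. Genes that sense amino acids for mTORC1 and GCN2 had a median log2 ratio of 0.07 over 32 genes, with 3 at least 25% higher (9.38%, beside 6.5% of all genes) and 1 at least 20% lower (3.12%, beside 8.43%), shares that are also near the background at this number of genes. Besides *Atf4*, the higher ones were *Sesn2*, a leucine sensor (12.4 FPKM in si*Malat1* and 8.32 in siNC), and *Lars*, the leucyl-tRNA synthetase (44.8 and 33.4 FPKM). *Sesn3* had 6.86 FPKM in si*Malat1* and 8.80 in siNC, and *Gatsl2*, related to the arginine sensor CASTOR, had 9.37 and 11.3 FPKM. Over the 131 Slc genes of other families that passed the filter, 3 were at least 25% higher (2.29%, beside 6.5% of all genes). At least 20% lower were 11 (8.40%, beside 8.43%). Their share on the higher side was thus below that of all genes, and their median log2 ratio was -0.04, as it was over all genes.

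**Figure D5:**
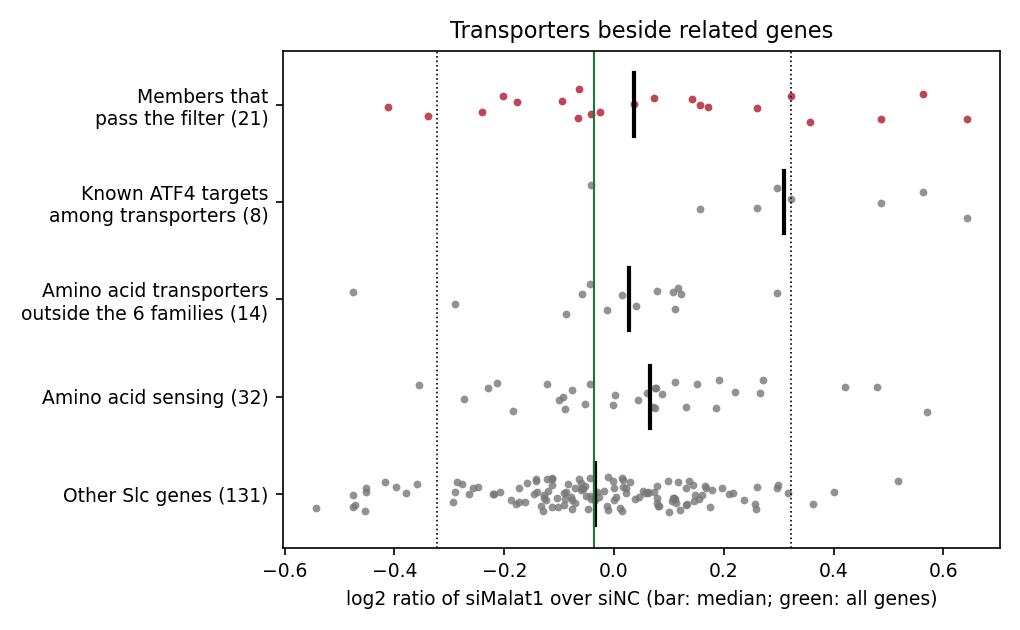
Log2 ratios of si*Malat1* over siNC for the genes of each list that passed the filter (points, spread vertically for sight only; bars are medians; the number of genes is in brackets), with 25% higher and 20% lower dotted and the median of all genes in green. The median is 0.04 for the transporters, 0.31 for known ATF4 targets among transporters, *Slc6a9* included, and -0.04 for other Slc genes.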

How the data were processed

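The authors sequenced polyadenylated RNA as paired-end reads, mapped them to mm9 with TopHat2 2.0.9 and estimated FPKM with Cufflinks 2.1.1 and Cuffdiff 2.1.1, per the methods of the study and the submitters' processing notes. The deposited table gives 1 FPKM value per gene and library. The annotation and library strand are not given in the sources used here, so overlapping and antisense genes cannot be separated. Its columns with the natural log of the fold change and with the authors' call were not used. The table holds no counts and depth is unknown. Among 1937 low genes (mean up to 0.1 FPKM), the ratio of 489 lay within 0.004 (natural log) of 1.09 times a ratio of whole numbers up to 6, against a median of 64 for other multipliers, so 1 fragment may weigh 1.09 times as much in si*Malat1*.

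The log2 ratio of si*Malat1* over siNC, each with 0.1 FPKM added, was computed for the 15080 of 22095 genes above 0 in both libraries, and 11099 of them had a mean of at least 1 FPKM. Every transporter passing that filter is named, with the 2 largest and 2 smallest ratios of each list (33 of 34 sensing genes matched, 4 by an older symbol through RefSeq). Members and lists were chosen with earlier results of these data known. Locus starts were raised by 1, since 6044 of 18720 loci of 1 gene then equal the RefSeq gene length, against 414 as given. Promoter windows are from RefSeq (GRCm38.p6), and no coordinates were converted. Python 3.11.15, numpy 2.4.6, pandas 2.3.3 and matplotlib 3.10.9 were used, and the calculation was tested on simulated data. Alternatives were 0 and 1 FPKM added, 3 scalings, other filters and a fold of 1.5.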

Additional observations from a re-analysis of the deposited data

How the results depend on the processing

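With 1 library on each side, no replicate could be left out and no paired analysis was possible. The count of transporters at least 25% higher moved from 5 to 3 with 1 FPKM added and with equal sums, where *Slc7a11* and *Slc38a9* dropped out. That of transporters at least 20% lower moved from 2 to 1 with 1 FPKM added, with median centring and with equal upper quartiles, where *Slc1a3* dropped out. At 1.5-fold they were 1 and 0. The median of Slc7a was 0.074 with no filter and 0.40 at a mean of at least 5 FPKM, and that of Slc43a was -0.41 at a mean of at least 5 FPKM, where 1 gene was left. The median over all families was -0.04 with no filter (29 genes) and -0.00 at a mean of at least 5 FPKM (16 genes). Over 5 alternatives *Slc7a5* lay between 0.59 and 0.68, *Slc3a2* between 0.51 and 0.60 and *Slc7a1* between 0.43 and 0.52. Of 105 recomputed ratios 104 moved by less than 0.1, a tolerance set for want of replicates, and the sign of *Slc38a1* and *Slc43a2* turned. The 3 scalings shift every ratio by nearly the same amount, -0.05, 0.04 or 0.03, so none of them could reach 0.1. That count is therefore no measure of how stable the ratios are. Counting error cannot be given without depth.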

Other observations

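Among Slc genes of other families that reached 5 FPKM in either library, the largest ratios belonged to *Slc6a2*, a noradrenaline carrier, with 14.2 FPKM in si*Malat1* and 10.7 FPKM in siNC, and to *Slc2a6*, a facilitated sugar carrier, with 31.4 and 24.4 FPKM. The smallest belonged to *Slc25a22*, given above, to *Slc16a1*, the lactate carrier MCT1, with 27.3 FPKM in si*Malat1* and 36.02 FPKM in siNC, and to *Slc25a10*, a mitochondrial dicarboxylate carrier, with 11.2 and 14.6 FPKM. These genes were chosen after their values were seen, and none of them reached a ratio of 1.5-fold either way.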
